A study of Mus musculus with 8 samples.

Results

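Alx1-positive head mesenchyme-like cells were described in the single-cell RNA library of mouse embryonic stem cell derivatives labelled Tet-triple knockout (TKO). A cell belonged to the set, called gated cells here, when its mitochondrial (mt-) share of unique molecular identifiers (UMIs, the tags that count single RNA molecules) was at most 15%, it held at least 1 UMI of Alx1 and at least 1 UMI of Foxc1 or Col23a1, and it held no UMI of Epcam. The rule chose 280 of the 3197 TKO-labelled cells within the mitochondrial limit and 0 of the 4392 such cells labelled wild type (WT), out of 7618 deposited cells in all. The members were chosen by these UMI counts, so the levels of Alx1, Foxc1, Col23a1 and Epcam are given as a description only.

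The series asked how loss of Tet proteins, the enzymes that oxidise 5-methylcytosine, affects differentiation of embryonic stem cells toward cardiomyocyte progenitors. Both libraries came from day 5 of hanging-drop differentiation without leukemia inhibitory factor. The parent line named for every sample, E14-NKX2-5-EmGFP, was grown on feeder cells before differentiation. The TKO label names all 3 Tet genes as lost, and the number of knockout clones behind it is not given in the sources used here. With 1 library per genotype, and cells of 1 library not being replicates, no test was possible and no p-value is given. The other 6 samples of the series, pull-downs from wild-type cells, were not used here.

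Head mesenchyme forms from cranial paraxial mesoderm and from cranial neural crest. Alx1 is a paired-type homeobox factor of this tissue, needed in the mouse for closure of the cranial neural tube, and Foxc1 is a forkhead factor of head and paraxial mesoderm. Col23a1 is a transmembrane collagen. Epcam, an adhesion molecule of epithelia and pluripotent cells, is switched off when cells become mesenchymal. Sfrp1, a secreted Wnt antagonist, and Ebf1, a helix-loop-helix factor of mesenchyme and lymphoid cells, complete the marker list for these cells and were not used by the rule.

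Start-site windows of some genes that define or lead the set are shown because Tet enzymes act on methylated CG. No window was available for Alx1, Sfrp1, Foxc2, Tcf15, Nefl, Pax3 or Tmem119. Each window runs from 250 bases before to 50 bases after a start site, from RefSeq on GRCm38.p6. In the first pair, capitals mark every CG, at the partner genes of the gate. The Foxc1 window lies at chr13:31806396-31806695 on the plus strand. The Col23a1 window lies at chr11:51289670-51289969 on the plus strand.
Foxc1: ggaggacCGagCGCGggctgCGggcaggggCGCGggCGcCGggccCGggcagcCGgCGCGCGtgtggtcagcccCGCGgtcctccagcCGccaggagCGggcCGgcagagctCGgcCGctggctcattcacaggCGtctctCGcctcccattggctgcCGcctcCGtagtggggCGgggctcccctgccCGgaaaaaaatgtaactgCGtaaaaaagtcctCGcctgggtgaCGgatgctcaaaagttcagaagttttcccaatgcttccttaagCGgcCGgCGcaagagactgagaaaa
Col23a1: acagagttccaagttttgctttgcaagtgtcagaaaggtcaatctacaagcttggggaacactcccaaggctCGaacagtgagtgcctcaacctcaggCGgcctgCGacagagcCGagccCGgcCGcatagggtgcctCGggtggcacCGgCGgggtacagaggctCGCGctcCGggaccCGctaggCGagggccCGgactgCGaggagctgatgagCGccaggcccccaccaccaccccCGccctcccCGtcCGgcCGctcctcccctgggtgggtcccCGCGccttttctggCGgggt
The Foxc1 window held 32 CG and the Col23a1 window held 24, and 90.5% and 80.0% of 32841 windows of 27018 genes held fewer. The median over all windows was 7 CG, with quartiles of 3 and 20. Epcam, whose absence the gate requires, had 11 CG in its window. The windows of Ebf1 held 9 and 17 CG, that of Prrx2 held 28 and that of Crabp1 held 17. The windows that were available for gated-cell genes ran from CG-rich to near the median. Zfp365, a gene with one of the highest ratios against other cells without Epcam, had 8 CG in its window. It lies at chr10:67912613-67912912 on the minus strand, with CG again in capitals.
Zfp365: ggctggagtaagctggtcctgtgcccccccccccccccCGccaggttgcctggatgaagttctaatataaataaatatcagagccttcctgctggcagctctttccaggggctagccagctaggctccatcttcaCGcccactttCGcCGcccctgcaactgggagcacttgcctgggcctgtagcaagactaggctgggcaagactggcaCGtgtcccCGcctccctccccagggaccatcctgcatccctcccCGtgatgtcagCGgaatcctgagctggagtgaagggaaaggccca
GTAAACA, a letter pattern bound by forkhead factors, was searched on both strands and was found in 3.65% of all windows. Of the 15 genes with the highest ratios against other cells without Epcam, 11 had windows, 15 in number, with a median of 17 CG, and 0 of those windows held GTAAACA. A match or its absence describes letters in the window only.

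The kept TKO-labelled cells had a median of 9679 UMIs and the kept WT-labelled cells 7849.5. Gated cells had 2568 to 24928 UMIs with a median of 9170, a median of 2764 genes, a median mitochondrial share of 4.05% and a median ribosomal protein share of 31.4%. The other 1527 TKO-labelled cells without Epcam had a median of 8748 UMIs, a mitochondrial share of 4.10% and a ribosomal protein share of 30.6%. Depth and these shares were close in the sets. Tet1 was at 22.8 CPM (the share of a gene in all UMIs of a set, in parts per 1e6) in the TKO-labelled library and 12.3 in the WT-labelled library, Tet2 at 4.60 and 6.82, and Tet3 at 20.3 and 29.2. Transcripts of all 3 were thus counted under the TKO label, and which part of each gene was deleted is not given in the sources used here, so these values do not check the label. The headers of the tables shared 21 barcode sequences.

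Gated cells made up 8.76% of kept TKO-labelled cells (exact binomial 95% interval 7.80 to 9.79%) and 15.5% of those without Epcam. A count of 0 in 4392 WT-labelled cells allows a share of up to 0.0683%. Alx1 alone was found in 514 of 3197 TKO-labelled cells (16.1%) and in 10 of 4392 WT-labelled cells (0.228%). The other 2 conditions were met in both libraries, with Foxc1 or Col23a1 and no Epcam in 762 TKO-labelled cells (23.8%) and 508 WT-labelled cells (11.6%). Of the summed partner UMIs, Foxc1 stood at 35.3 CPM in the TKO-labelled and 0.586 CPM in the WT-labelled library, and Col23a1 at 36.0 and 16.1 CPM. After each cell was thinned to 4000 UMIs, the gate held 132 of 3007 TKO-labelled cells (4.39%) and 0 of 4019 WT-labelled cells. The TKO-labelled library thus still held gated cells at this depth, while the WT-labelled count was already 0 before thinning. With 1 library per genotype this describes the libraries and does not tell genotype from culture. Thinning left out 209 TKO-labelled and 376 WT-labelled cells as too shallow. All intervals here cover counting error in these libraries, not variation between cultures.

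Free RNA can place UMIs in cells that do not express a gene. In the TKO-labelled cluster led by Ttr, Ihh and Cdx2, which held no gated cell, Alx1 was found in 10 of 396 cells (2.53%, median depth 10376.5 UMIs). In other clusters with no gated cell the share was higher, at 18 of 176 (10.2%) in the one led by S100g and 8 of 56 (14.3%) in the one led by T. Neither the 21 cells of the globin-led cluster nor the 20 cells of the cluster led by Dppa3 held an Alx1 UMI. Among cells without Epcam, Alx1 was found in 376 of 1807 (20.8%), against 138 of 1390 with Epcam (9.93%, median depth 11169.5 UMIs).

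Each gate gene reached a gated cell in few molecules. Alx1 ranged from 1 to 12 UMIs per gated cell with a median of 2, and 122 of the 280 (43.6%) held exactly 1. Foxc1 ranged from 0 to 5 and Col23a1 from 0 to 10, both with a median of 1. Both partners were present in 113 gated cells (40.4%), Foxc1 without Col23a1 in 67 (23.9%) and Col23a1 without Foxc1 in 100 (35.7%). These subsets differed in Ebf1, at 104 CPM with both partners, 23.1 CPM (12.9 to 38.0) with Foxc1 only and 109 CPM with Col23a1 only, and in Tcf15, at 80.0, 6.15 and 22.9 CPM. Levels given below for all gated cells pool these subsets. Sfrp1, which the rule did not use, ranged from 0 to 21 UMIs with a median of 3 and was present in 255 of the 280. Ebf1 ranged from 0 to 10 UMIs and was present in 105, so 175 gated cells had none at this depth. At 241 Ebf1 UMIs over 280 cells, a count of 0 in a cell does not show that it lacked Ebf1 RNA.

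Against all 2917 other TKO-labelled cells, Sfrp1 stood at 423 CPM in gated cells and 120 CPM in the rest, a ratio of 3.53 (95% counting interval 3.30 to 3.77). Ebf1 stood at 86.7 CPM in gated cells and 18.4 CPM in the rest, a ratio of 4.70 (4.03 to 5.48). Of 10341 genes with at least 100 UMIs in the TKO-labelled cells, without the 4 gate genes, 138 (1.33%) were at least 2-fold higher in gated cells and 652 (6.3%) at least 2-fold lower. The rule left cells with Epcam in the rest, and 14 of 15 measured epithelial adhesion genes were at least 2-fold lower in gated cells, from which nothing is read. Cldn6, a tight junction protein, stood at 7.55 CPM in gated cells and 341 CPM in the rest, and Pou5f1, the core pluripotency factor, at 2.88 and 110 CPM. Comparisons below therefore set gated cells beside TKO-labelled cells that also lack Epcam. Against those, 8 of 15 epithelial adhesion and 7 of 13 core pluripotency genes were still at least 2-fold lower (4.32% over all genes). In both lists 0 were at least 2-fold higher (1.15%). Of 11 definitive endoderm genes 5 were at least 2-fold lower and 3 at least 2-fold higher. The epithelial and pluripotency differences were thus smaller there but not removed.

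The genes at the ends of the comparison with other cells without Epcam are given first. Nefl, a neurofilament subunit, stood at 76.2 CPM in gated cells and 11.02 CPM in the other 1527 cells without Epcam, a ratio of 6.92 (5.60 to 8.56). Zfp365, a zinc-finger protein of neurons and the DNA damage response, stood at 50.7 and 9.75 CPM, a ratio of 5.20 (4.08 to 6.63). Tmem119, known from osteoblasts and microglia, stood at 53.2 and 13.8 CPM (ratio 3.86, 3.10 to 4.81). Mfap4, a microfibril protein of the extracellular matrix, stood at 191 and 72.7 CPM (2.62, 2.36 to 2.91). Timp3, an inhibitor of matrix proteases, stood at 96.4 and 35.8 CPM (2.69, 2.31 to 3.13). Nefl was spread over 83 gated cells and Mfap4 over 213, whereas 101 of the 203 Nnat UMIs came from 1 cell. Nnat, an imprinted membrane protein gene, stood at 73.0 and 15.5 CPM, and its ratio of 4.70 was 2.37 without that cell, an alternative chosen after seeing the data. At the low end were embryonic globins (Hbb-bh1 at 2.88 and 272 CPM), Myl7, Myl4, Tnnc1 and Hand1. The list of blood genes, which holds the globins, had a median of 0 UMIs per cell in the others and a highest value of 2049. In this comparison 119 of 10341 genes (1.15%) were at least 2-fold higher and 447 (4.32%) at least 2-fold lower. Of 14 measured genes of the mesenchymal transition list, 2 were at least 2-fold higher and 1 at least 2-fold lower, with a median log2 ratio of 0.057. Vim, the intermediate filament of mesenchymal cells, stood at 245 CPM in gated cells and 435 CPM in the others, and Fn1, fibronectin, at 118 and 176 CPM.

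**Figure D1:**
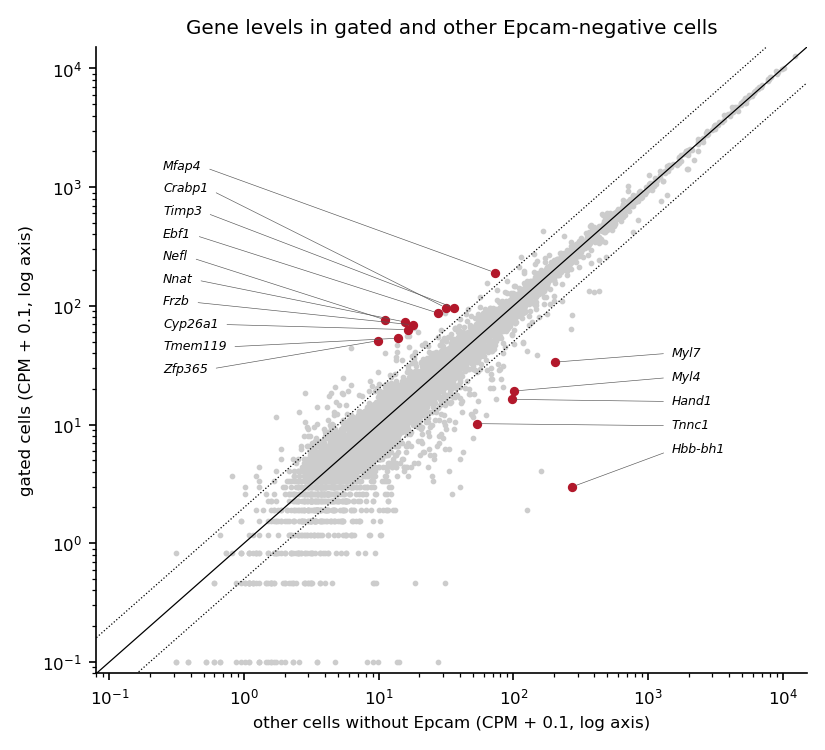
Level of each of 10341 genes in gated cells (vertical, CPM + 0.1, log axis) against the other cells without Epcam (horizontal, same scale). The solid line marks equal levels and the dotted lines 2-fold; named genes at the ends are red and labelled, and Nefl and Zfp365 lie above the upper dotted line.

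Head mesoderm and cranial mesenchyme factors, transcription factors and receptors of the tissue the label names, were a list of 31 genes. Alx1 and Foxc1 made the gate, 10 members fell short of 100 UMIs, and 19 were measured. Of those 19, 8 were at least 2-fold higher in gated cells than in other cells without Epcam, against 1.15% of all genes, and 2 were at least 2-fold lower (4.32%). Ebf1, a marker given with these cells, is among the 8. Their median log2 ratio was 0.81, beside -0.01 over all genes. The forkhead factor Foxc2, the paralog of Foxc1, stood at 34.9 CPM in gated cells and 14.7 CPM in the others. Eya2, a transcriptional coactivator and phosphatase, stood at 9.35 and 2.83 CPM. Six2 stood at 14.4 and 4.94 CPM and Ebf2 at 20.5 and 4.66 CPM. The homeobox genes Prrx1 and Prrx2, of limb and craniofacial mesenchyme, stood at 36.7 and 13.4 CPM and at 275 and 141 CPM.

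Other members of the list differed less or ran the other way. Twist1, a helix-loop-helix factor of cranial mesenchyme, stood at 81.6 CPM in gated cells and 48.3 CPM in the others. Pdgfra, a receptor of mesenchymal cells, stood at 64.4 and 36.8 CPM, and Tbx1 at 9.35 and 6.00 CPM. Nrp1, a co-receptor for semaphorins and VEGF, was lower, at 134 CPM in gated cells and 432 CPM in the others. Of the markers of later head mesoderm, Msc had 0 UMIs in gated cells and Tcf21 had 0.719 CPM. Alx4, Foxl2, Cyp1b1 and Sim2 also had 0 UMIs in gated cells.

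Secreted Wnt inhibitors, which bind Wnt ligands or their co-receptors outside the cell (Sfrp, Dkk and related genes), were also higher in gated cells in several cases. Of 7 measured members, 4 were at least 2-fold higher (1.15% over all genes) and 1 was at least 2-fold lower (4.32%), with a median log2 ratio of 1.03. The 4 were Sfrp1, a marker given with these cells, Frzb, Dkk1 and Cer1. Dkk1 and Cer1 are also counted in the prechordal plate list below, so the 2 lists are not separate results. Sfrp1 stood at 423 CPM in gated cells and 164 CPM in other cells without Epcam, a ratio of 2.57 (2.40 to 2.76). Frzb, another frizzled-related antagonist, stood at 69.0 and 17.7 CPM (3.89, 3.21 to 4.72). Dkk1, which blocks the Lrp5 and Lrp6 co-receptors and is required for head formation in the mouse, stood at 93.5 and 45.8 CPM (2.04, 1.76 to 2.36). Cer1, a Nodal, BMP and Wnt antagonist of anterior tissue, stood at 11.5 and 1.62 CPM but in 17 gated cells. Sfrp5 was the exception, at 11.5 CPM in gated cells and 50.4 CPM in the others. Of 14 measured Wnt ligands and receptors, 2 were at least 2-fold higher and 2 at least 2-fold lower. Among receptors, Fzd2 stood at 213 and 111 CPM and Fzd3 at 34.9 and 13.3 CPM, but Fzd4 at 5.39 and 13.4 CPM and Fzd5 at 2.52 and 5.23 CPM. The ligand gene Wnt2 stood at 15.8 CPM in gated cells and 54.1 CPM in the others.

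Genes of anterior position lay on both sides, and the Hox genes that could be measured were lower than in other cells without Epcam. Otx2, a homeobox factor of the forebrain and anterior mesendoderm, stood at 64.0 CPM in gated cells and 36.9 CPM in other cells without Epcam. Lhx1, a LIM homeobox factor of head organizer tissue, stood at 62.6 and 28.9 CPM, and Gsc at 17.3 and 7.42 CPM. Of 8 measured prechordal plate genes, 4 were at least 2-fold higher (1.15%), 1 was at least 2-fold lower (4.32%), 3 lay below 0, and the median log2 ratio was 0.91. Against all other TKO-labelled cells 2 of the 8 were at least 2-fold higher and 3 at least 2-fold lower, with a median of -0.17, and Otx2 stood at 64.0 CPM in gated cells and 102 CPM in the rest. The whole list summed to 269 CPM in gated cells, 158 CPM in other cells without Epcam and 366 CPM in cells with Epcam. Of 10 measured anterior neural plate genes, 2 were at least 2-fold higher (1.15%) and 2 at least 2-fold lower (4.32%) than in other cells without Epcam. Their median was 0.42, with Sox2 at 5.75 and 21.2 CPM. Of 22 Hox genes listed, 3 reached 100 UMIs, and all 3 were at least 2-fold lower, with Hoxb2 at 29.8 and 68.0 CPM and Hoxb4 at 7.19 and 20.3 CPM. Against all other TKO-labelled cells 0 of the 3 were at least 2-fold lower, with a median of -0.49. The whole Hox list summed to 56.8 CPM in gated cells, 135 CPM in other cells without Epcam and 21.1 CPM in cells with Epcam. Cyp26a1, which degrades retinoic acid, stood at 62.9 CPM in gated cells and 16.3 CPM in other cells without Epcam. Crabp1, a retinoic acid binding protein, stood at 96.4 and 31.3 CPM. Of 6 measured retinoid genes, 2 were at least 2-fold higher (1.15%) and 0 at least 2-fold lower (4.32%).

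Lists of other lineages lay both above and below other cells without Epcam. The share over all genes for the counts in this paragraph was 1.15% at least 2-fold higher and 4.32% at least 2-fold lower. Intermediate mesoderm genes, of the future kidney and gonad, were among those above: 6 of 6 measured had log2 ratios above 0 and 2 were at least 2-fold higher, with a median log2 ratio of 0.78 and sums of 204 CPM in gated cells and 118 CPM in other cells without Epcam. Of 8 primitive streak and nascent mesoderm genes, 4 were at least 2-fold higher and 1 at least 2-fold lower (median 0.67). Gsc and Lhx1 are among those 4 and were already counted as prechordal plate genes, and Lhx1 also as an intermediate mesoderm gene. Of 6 measured paraxial and presomitic mesoderm genes, 2 were at least 2-fold higher (Tcf15 and Cyp26a1) and 1 at least 2-fold lower (Rspo3), with a median log2 ratio of 0.42. Tcf15, a factor of somites and paraxial mesoderm, stood at 43.9 CPM in gated cells and 6.08 CPM in other cells without Epcam. It was found in 35 gated cells, with 28 of its 122 UMIs in 1 cell. Pax3, of dorsal neural tube, neural crest and somite, stood at 39.6 and 10.9 CPM. Of 8 measured neural crest genes, 2 were at least 2-fold higher (Pax3 and Crabp1) and 3 at least 2-fold lower, with a median log2 ratio of -0.76, and Sox9 stood at 46.8 and 28.2 CPM. The crest factors Sox10, Foxd3, Dlx1, Dlx2 and Pax7, picked after their values were seen, had 0 UMIs in gated cells, and Sox10 also had 0 in the other cells without Epcam. Of 9 measured contractile genes of the heart, 9 were at least 2-fold lower (4.32% over all genes), with Tnnt2 at 38.5 and 150 CPM and Myl7 at 33.4 and 203 CPM. Of 13 lateral plate genes 8 were at least 2-fold lower, among them Hand1 (16.2 and 97.6 CPM), Foxf1 (20.1 and 70.0 CPM) and Bmp4 (24.1 and 80.6 CPM). Of 15 cardiac progenitor genes 4 were at least 2-fold lower and 0 higher, with Mef2c at 83.8 and 273 CPM but Isl1 at 87.4 and 98.3 CPM. Of blood and smooth muscle genes, 5 of 6 and 2 of 3 measured members were at least 2-fold lower. Summed over each whole list, contractile genes made 179 CPM in gated cells and 856 CPM in the other cells without Epcam, blood genes 18.0 and 606 CPM, endothelial genes 215 and 316 CPM, and neural crest genes 225 and 195 CPM. A blood UMI was found in 13.6% of gated cells and 16.8% of those others, with a median of 0 per cell in both. The highest blood count in a cell was 4 in gated cells and 2049 in those others. Cells with Epcam summed to 20.8 CPM of blood genes. The blood difference therefore does not set gated cells apart from most other cells without Epcam. One gated cell carried 42 of 107 Tnnt2 UMIs, and without it the Tnnt2 ratio was 0.157, against 0.256 with it. Leaving out cells in the top 5% of doublet scores moved no count of genes by over 1.5 times. Cell cycle lists did not differ past 2-fold: 0 of 20 S phase and 0 of 20 G2/M genes.

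**Figure D2:**
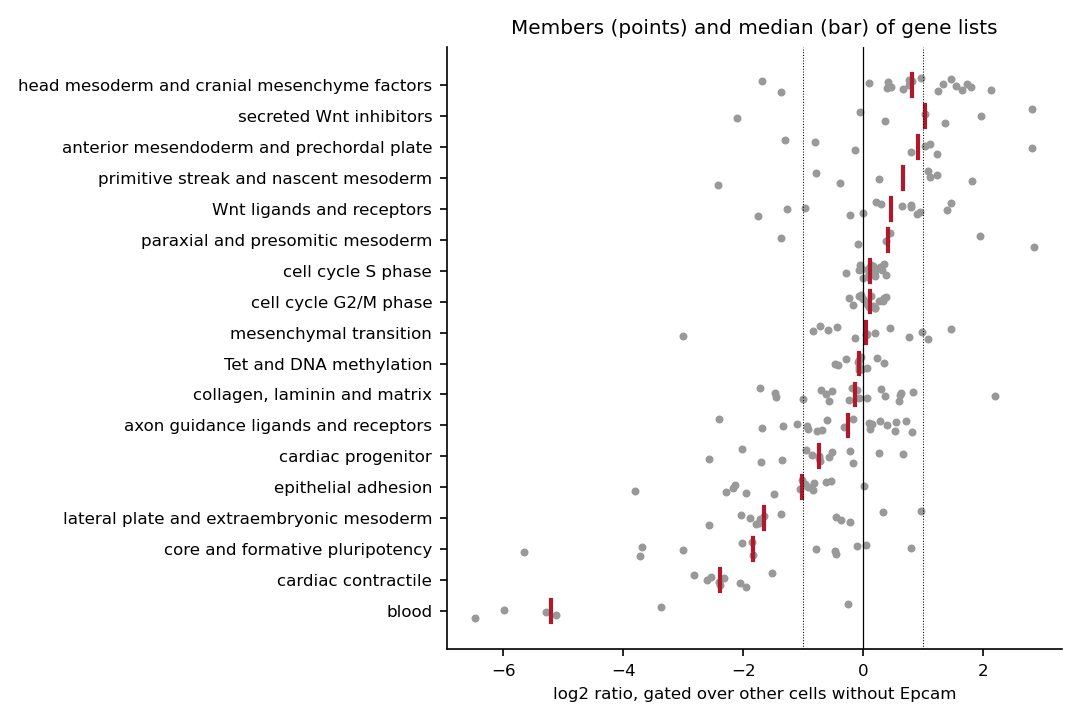
Log2 ratio of gated over other cells without Epcam for members of 18 gene lists (grey points, genes with at least 100 UMIs) and the list median (red bar), with dotted lines at 2-fold. Head mesoderm factors and secreted Wnt inhibitors lie mostly right of 0, cardiac contractile and blood genes left of it.

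Shares of cells were compared after thinning to 4000 UMIs, in 270 gated cells, 1407 other cells without Epcam and 1330 cells with Epcam. Sfrp1 was found in 69.6% of gated cells and in 38.7% of other cells without Epcam and 19.2% of cells with Epcam. Prrx2 was found in 55.6%, 34.3% and 8.72%, Ebf1 in 22.6%, 7.75% and 3.16%, and Zfp365 in 20.7%, 3.55% and 2.71%. The 3 sets therefore kept the same order for these genes at equal depth. Frzb did not follow that order, and was found in 22.2% of gated cells, 5.33% of other cells without Epcam and 20.5% of cells with Epcam. Hand1 was found in 1.85% of gated cells and 13.1% of other cells without Epcam, and Tnnt2 in 4.07% and 20.5%.

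**Figure D3:**
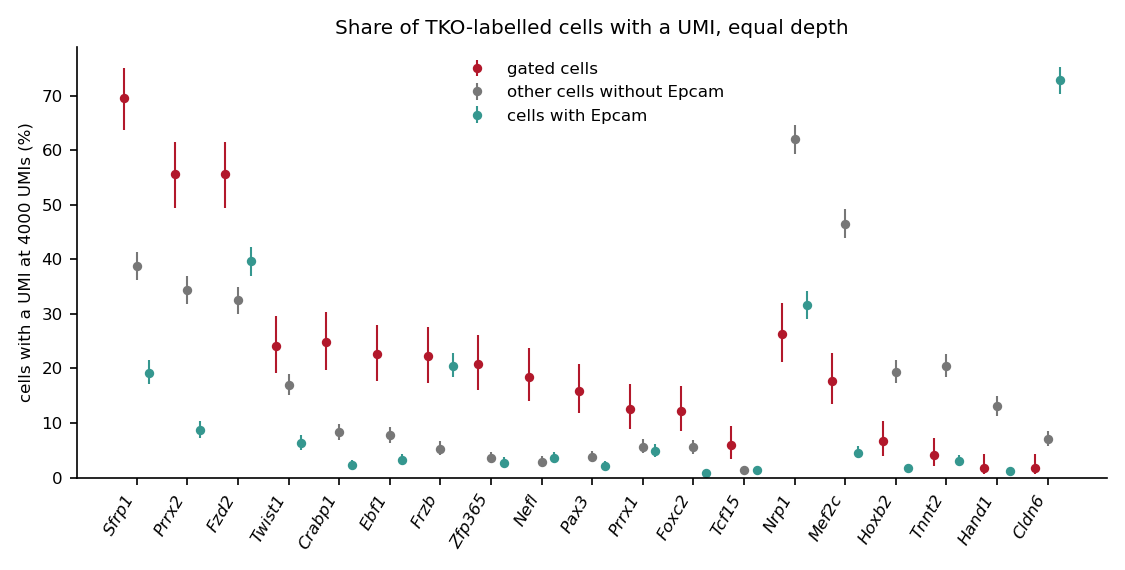
Share of cells with a UMI of each gene (vertical, %) after thinning to 4000 UMIs, for gated cells (red), other cells without Epcam (grey) and cells with Epcam (teal); bars are exact binomial 95% intervals. Sfrp1 was found in 69.6% of gated cells, above both other sets.

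Neighbouring mesoderm was taken as 183 Hand1-positive cells and as 421 cells with Isl1 and Mef2c, all without Epcam and Alx1, with 30 cells in both sets. These genes chose the sets, so their levels there are descriptions. Against Hand1-positive cells, Ebf1 stood at 86.7 CPM in gated cells and 3.49 CPM in Hand1-positive cells (24.9, 11.9 to 62.5), and Otx2 at 64.0 and 6.47 CPM (9.89, 5.64 to 18.9). In the other direction Msx1, a BMP target, stood at 20.1 CPM in gated cells and 223 CPM in Hand1-positive cells, and Twist2 at 3.96 and 119 CPM. Tdo2, a tryptophan-degrading enzyme, had 0 UMIs in gated cells and 138 in Hand1-positive cells. At least 2-fold higher were 619 of 10341 genes (5.99%), with 12 of 19 head mesoderm factors, 6 of 7 Wnt inhibitors and all 8 prechordal plate genes. The difference was not particular to those lists. Also higher were 8 of 10 anterior neural plate, 7 of 11 definitive endoderm and 6 of 8 primitive streak genes, while 2 head mesoderm factors were at least 2-fold lower. At least 2-fold lower were 481 genes (4.65%), with 8 of 13 lateral plate genes. Both of these counts include Hand1, whose difference the choice of the set made.

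Against cells with Isl1 and Mef2c, 280 genes (2.71%) were at least 2-fold higher and 404 (3.91%) at least 2-fold lower. The lower genes include Isl1 and Mef2c, which chose that set. Higher were 9 of 19 head mesoderm factors, 3 of 7 Wnt inhibitors and 5 of 8 prechordal plate genes, while 2 head mesoderm factors were at least 2-fold lower. Here too other lists were higher, with 7 of 10 anterior neural plate, 5 of 6 paraxial mesoderm, 5 of 8 primitive streak and 4 of 8 neural crest genes. Nefl stood at 76.2 CPM in gated cells and 4.41 CPM in Isl1 and Mef2c cells (17.3, 10.8 to 29.3), Cyp26a1 at 62.9 and 8.81 CPM and Ebf1 at 86.7 and 18.8 CPM. Prrx2 was nearer, at 275 and 161 CPM. Lower were all 9 contractile genes, among them Ttn, the giant sarcomere protein, at 5.75 and 71.2 CPM, and Smyd1, a muscle methyltransferase, at 3.24 and 50.1 CPM. Gata6, a factor shared by heart and endoderm, stood at 110 CPM in gated cells, 200 CPM in Hand1-positive cells and 257 CPM in Isl1 and Mef2c cells.

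**Figure D4:**
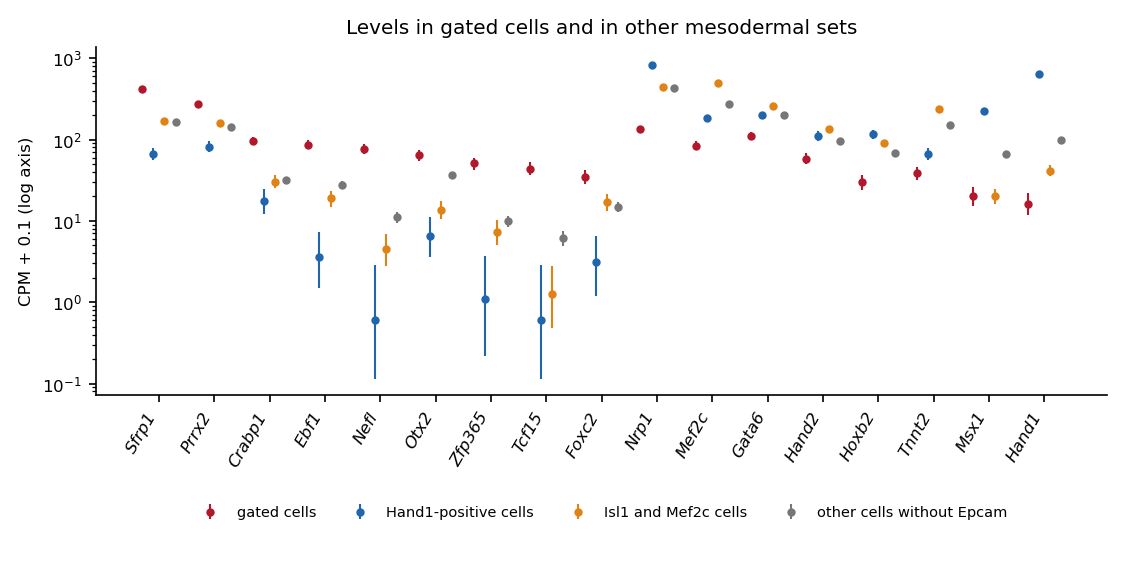
Level (vertical, CPM + 0.1, log axis) of 17 genes in gated cells, Hand1-positive cells, cells with Isl1 and Mef2c, and other cells without Epcam, each with its exact Poisson 95% interval. Sfrp1 stood at 423 CPM in gated cells, and Ebf1 and Otx2 were lower in Hand1-positive cells than in gated cells.

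Clusters of the TKO-labelled cells, made without gate, mitochondrial and ribosomal protein genes, placed gated cells in 7 of 12 groups. A cluster led by Tcf15, Foxc2 and Tmem119 held 121 gated cells (43.2% of them) among its 382. One led by Bdnf, Nupr1 and Penk, with Ebf2 and Crabp1 among its leading genes, held 97 (34.6%) among 244, the highest share of a cluster at 39.8%. At resolution 1.2 Nupr1 and Bdnf led a separate cluster of 40 cells with 0 gated cells, and 98 gated cells lay among 219 cells led by Ptgds, Crabp1 and Ebf2. The third, led by Myl4, Myl7 and Tnnt2, held 48 (17.1%) among 588. The other 14 were spread over 4 clusters. Gated cells in these 3 clusters had median depths of 11098, 7611 and 9128 UMIs. Since the clusters were made from the same genes, the following levels only describe them. The 20 G2/M genes summed to 4656 CPM in the first, 634 CPM in the second and 817 CPM in the third. In the same order, Ebf1 stood at 92.4, 117 and 24.5 CPM and Nefl at 80.6, 89.8 and 16.3 CPM. In the third the contractile genes summed to 558 CPM, against 80.6 and 71.6 CPM in the first and second, with a median of 1 UMI per cell and a highest value of 138. Sfrp1 stood at 421, 504 and 397 CPM, so it was high in all 3.

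**Figure D5:**
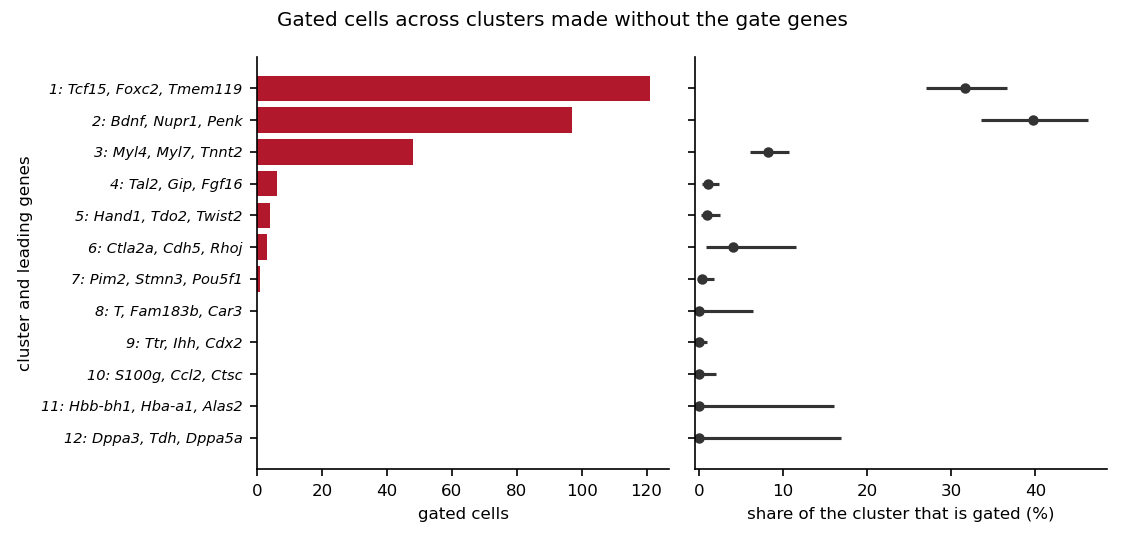
Number of gated cells in each cluster of TKO-labelled cells (left) and the share of the cluster's cells that were gated (right, %, exact binomial 95% intervals); clusters are labelled by number and leading genes. The first 3 hold 121, 97 and 48 of the 280.

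The edge of the gate was described without a test. Inside it, the 122 cells with 1 Alx1 UMI had Ebf1 at 68.0 CPM and Sfrp1 at 389 CPM, and the 94 cells with 3 or more had 114 and 436 CPM. Just outside, 96 cells with Alx1 but neither partner had Ebf1 at 35.4 CPM and Sfrp1 at 326 CPM. Another 25 cells met the gate but for 1 Epcam UMI, with Ebf1 at 51.3 CPM, Sfrp1 at 337 CPM and Cldn6 at 128 CPM. The 53 with 2 or more Epcam UMIs had Ebf1 at 8.82 CPM, Sfrp1 at 101 CPM and Cldn6 at 684 CPM. The 482 cells with a partner and neither Alx1 nor Epcam had Sfrp1 at 201 CPM and Mef2c at 254 CPM.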

How the data were processed

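For each gene in each cell the deposited tables hold raw counts, whole numbers taken as UMI counts, for 2 of the 8 samples of the series, 1 library per genotype at day 5. The other 6 samples, pull-downs from wild-type cells, were not used here. The submitters' processing notes name Seurat 3 and mm10 without their role, as well as BSMAP, DESeq2 and MACS2, whose use is not stated there. The aligner, counter, chemistry, strand setting and any earlier filter are not given in the sources used. Both tables had 27998 gene rows and 37537946 (WT) and 33602635 (TKO) UMIs. The TKO header named 3224 barcodes for 3223 values per row, so cells were read by position. In 116 row names the tables differed in an ending, and rows were matched by position. The mitochondrial limit of 15% left out 26 TKO-labelled and 3 WT-labelled cells.

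UMIs were summed per set and scaled to CPM with exact Poisson 95% intervals, ratios had exact intervals based on a binomial share of both sums, and shares had exact Clopper-Pearson intervals. They cover counting error only. Log2 ratios used a prior count of 0.5, genes needed 100 UMIs over kept TKO-labelled cells, and 2-fold was the size counted. The summed-count step was tested on simulated independent Poisson counts, and recovered planted changes that were larger than 2-fold. That simulation had no clustering of UMIs in single cells, so it does not check changes near 2-fold or the width of intervals in real cells. Scrublet (scanpy 1.11.5, expected rate 0.06) scored doublets and marked 3 cells per library, under 0.5%, which is treated as a failed call, and no cell was removed. Leiden clusters (igraph 0.11.9, resolution 0.8) left out gate, mitochondrial and ribosomal protein genes. Python 3.11.15, numpy 2.4.6, scipy 1.17.1 and matplotlib 3.10.9 were used. The promoter windows came from RefSeq on GRCm38.p6 and were matched by symbol.

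The named genes were the 15 highest and 10 lowest ratios per comparison at 50 CPM or more in the higher set (without mt-, ribosomal protein, Gm and Rik genes), up to 4 list members at either end with at least 20 UMIs, the gate and marker genes and the head mesoderm members. Outside that rule, Gata6, Tet1, Cdx2 and the neural crest genes at 0 were named after their values were seen, and cluster leaders as such. Members and the 39 gene lists were chosen with earlier results of these data known. Alternatives covered the gate, depth, gene minimum, prior count, cell weighting, doublet scores, denominator and cluster resolution. Some genes that the rule names are not reported here.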

Additional observations from a re-analysis of the deposited data

How the results depend on the processing

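With 1 library per genotype, counts past 2-fold describe these cells and carry no error between cultures. No paired analysis was possible because each genotype had 1 library and no test was made. The gate held 158 TKO-labelled cells with at least 2 Alx1 UMIs and 132 at 4000 UMIs. The count in the WT-labelled library was 0 under every alternative of the gate. For the stricter ones (2 Alx1 UMIs, an mt- share of at most 10%, no top doublet scores) that 0 was fixed in advance. Allowing 1 Epcam UMI or any mt- share, or losing Epcam UMIs by thinning, could have raised it. The numbers of genes at least 2-fold higher and lower followed the gene minimum. Against the rest they were 316 and 1158 at 30 UMIs per gene, and 59 and 308 at 300. Against other cells without Epcam they were 327 and 858, and 44 and 201. Against Hand1-positive cells they were 1101 and 845, and 268 and 240. Against Isl1 and Mef2c cells they were 644 and 740, and 102 and 191. After thinning, the higher count was 450 against the rest, and higher and lower counts were 449 and 845 against other cells without Epcam, 1248 and 1044 against Hand1-positive cells, and 915 and 887 against Isl1 and Mef2c cells. With at least 2 Alx1 UMIs, 185 genes were higher against other cells without Epcam. The naive pluripotency list's median log2 ratio against the rest was 0.018 at 300 UMIs per gene, and the log2 ratio of Foxd3 against the rest was 0.20 and that of Tgfbr2 against other cells without Epcam 0.21 after thinning, each the reverse of its sign in the report's setting. Thinning moved 75 of 156 list medians and requiring 2 Alx1 UMIs moved 41 (by 0.25 or more), so list medians depend on these choices. Of 250 log2 ratios of named genes, thinning took 109 outside their counting interval and turned the sign of 2, and requiring 2 Alx1 UMIs took 59 outside it. For the thinning alternative all sets were redrawn on the thinned counts, so cells could change set. The gene minimum there still used the unthinned UMIs. Thinning also left fewer UMIs and fewer gated cells per gene. What moved the values under either choice was not tested. The other prior count, cell weighting, denominator and doublet-score alternatives moved none of these gene counts by over 1.5 times. The alternative without the gated cell that held most UMIs of a gene was chosen after seeing the data.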

Other observations

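Signalling and matrix lists not described above held a few genes at either end in gated cells, set beside the other TKO-labelled cells without Epcam. Over all genes 1.15% were at least 2-fold higher and 4.32% at least 2-fold lower, and each count here is to be read against those shares. Of 20 measured collagen, laminin and matrix genes other than Col23a1, 1 was at least 2-fold higher and 3 were at least 2-fold lower. The higher one was Lama1, a laminin chain of early basement membranes, at 24.5 CPM in gated cells and 5.30 CPM in the others, found in 56 gated cells. Col18a1, a basement membrane collagen, stood at 29.1 and 80.1 CPM. Of 20 axon guidance genes, 0 were at least 2-fold higher and 4 were at least 2-fold lower. Unc5c, a netrin receptor, stood at 6.11 and 33.3 CPM, and Efnb1, an ephrin ligand of neural crest and mesenchyme, at 74.4 and 45.4 CPM. Of 11 PDGF and TGF beta genes, 1 was at least 2-fold higher and 1 at least 2-fold lower, namely Pdgfrb at 20.1 and 9.54 CPM and Tgfbr2 at 1.44 and 3.32 CPM. Fgf15, an FGF ligand, had 0 UMIs in gated cells and 139 in the others.

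Of 16 measured imprinted genes, 2 were at least 2-fold higher, Nnat and H19, and 1 was at least 2-fold lower, Dlk1. H19, a maternally expressed noncoding RNA, stood at 10.8 CPM in gated cells and 4.10 CPM in the others, but 14 of its 30 UMIs came from 1 gated cell, and without it the ratio was 1.41, against 2.63 with it. Dlk1, a paternally expressed Notch-related ligand, stood at 12.2 and 48.2 CPM. Within the gated cells Foxc2 and Tcf15 overlapped: Tcf15 was found in 17 of 61 cells with Foxc2 (27.9%) and in 8.22% of those without. Tnnt2 was found in 2.86% of gated cells with Ebf1 and in 10.3% of those without. These shares were not thinned, and depth differs among cells.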
